A study of Sus scrofa with 54 samples.

Results

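ISG15, UBE2L6 and USP18, the modifier, a conjugating enzyme and the main deconjugating enzyme of the ISG15 pathway, were followed in the ileum of 54 piglets. The members were all probesets that carried one of the 3 gene names (ISG15 also under its older symbol G1P2) in the array's annotation or, where the annotation gave no symbol, in the study's list of transcripts that differed between rearing groups on these arrays. Each gene had 1 such probeset, so 3 of the 24032 probesets tested were members. The name UBE2L6 came from that list alone, so its differences between rearing groups are a description that supports nothing about the members. The same holds for HERC6, RNF213, IFIH1, NMI and LYZ in the gene lists below.

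ISG15 is a small ubiquitin-like protein that type I interferon induces strongly, and it is attached to other proteins through an enzyme cascade that resembles the one for ubiquitin. UBA7 activates it, UBE2L6 carries it, and ligases such as HERC5 in humans and its relative HERC6 in mice pass it to targets. USP18 cuts it off again and also binds the interferon receptor IFNAR2, where it dampens the signal that induced the whole set. In the gut these genes belong to the interferon response of epithelium and immune cells to viruses and bacteria.

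The piglets were Large White × Landrace, born to sows inseminated by 1 boar. OUT piglets stayed with outdoor-housed sows and IN piglets with indoor-housed sows until weaning at day 28. IR piglets were taken a day after birth from the same indoor-housed sows as IN, so IR and IN share litters. They were kept in individual isolator units, fed milk replacer until day 28 and given the antibiotics Baytril and Amoxinsol every day. Isolation, loss of the dam, diet and antibiotics were thus applied together and cannot be told apart. All piglets ate creep feed after weaning, and 6 per rearing group were killed at days 5, 28 and 56, which gave 9 groups. RNA came from whole pieces of ileum, and each piglet gave 1 GeneChip Porcine Genome array. The study ran as 3 consecutive replicates, but neither the run nor the litter of a piglet stands in the labels, and 2 arrays of day 56 carry no replicate number. Tests therefore treated piglets as independent, both within a group and between IR and IN, whose litters could not be paired. Because piglets share runs and may share litters, the p of these tests may be too small or too large.

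The values were log2 signals, and array medians lay between 3.98 and 4.22. The epithelial markers VIL1, EPCAM and FABP2 averaged 12.0, 12.9 and 13.3 over all arrays, the ileal bile acid binding protein FABP6 8.89 and the smooth muscle actin ACTG2 13.7. In whole tissue, fewer cells of a type and less RNA per cell cannot be told apart. A pair of arrays stood apart. The array labelled IN replicate 3 at day 28 resembled those of day 5 more than those of its own day, with a mean correlation of 0.966 against 0.941. Its mean over 8 measured T cell markers was 3.16, below the other IN piglets at day 28 (5.33 to 7.34). At day 5 this mean ran from 3.21 to 3.50 in IN, 2.86 to 3.54 in IR and 3.07 to 3.54 in OUT. OUT replicate 3 at day 5 had a mean correlation of 0.881 with its own group. OUT replicates 1 and 2 at day 28 were also slightly closer to day 5 than to day 28 (0.964 against 0.962, and 0.960 against 0.957). Where a call or a value of a member rested on one of these arrays, the value without it is given beside it. The gene lists were fitted without such an array only for IR against OUT at day 5.

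The 3 genes were among the most variable on the array from piglet to piglet. The SD within groups, pooled over the 9 groups, was 2.51 on the log2 scale for ISG15, 1.83 for USP18 and 1.1 for UBE2L6, against a median of 0.344 over all probesets tested. By this measure ISG15 ranked 21 of 24032, USP18 68 and UBE2L6 616. From the lowest to the highest of the 54 piglets, ISG15 ran from 3.36 to 13.38, USP18 from 3.78 to 11.71 and UBE2L6 from 6.22 to 11.81. The plot of single piglets shows this spread within each group.

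**Figure D1:**
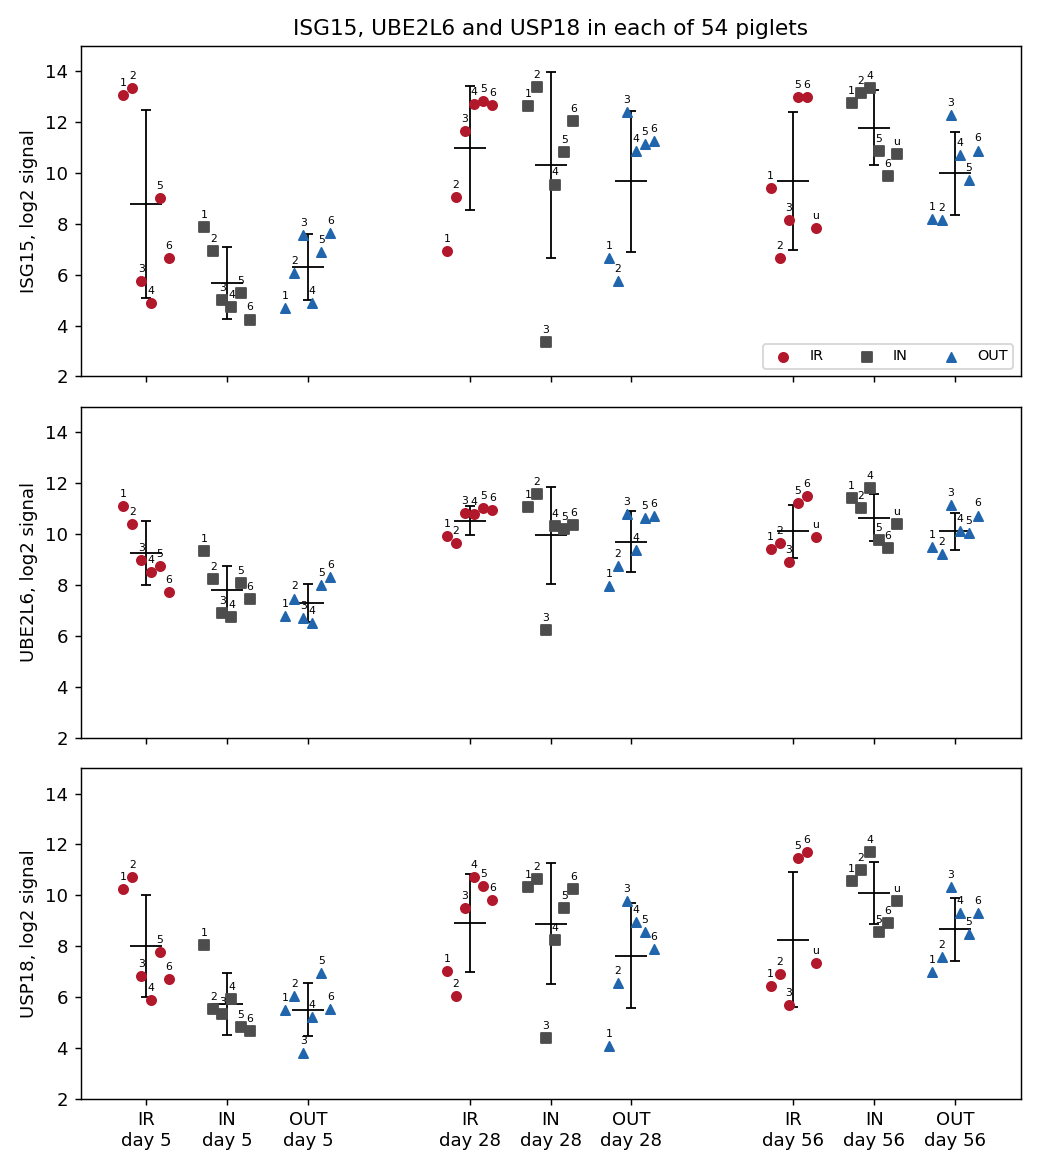
Log2 signal of ISG15, UBE2L6 and USP18 in each piglet (y axis) by rearing group and day (x axis). Points are piglets marked with their replicate number (u, not numbered), and black bars give the group mean and SD (n = 6). IR replicates 1 and 2 at day 5 lie above the other 4 IR piglets in all 3 panels, and IN replicate 3 at day 28 lies lowest of its group.

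At day 5 the isolator piglets had the highest group means in all 3 genes. UBE2L6, the conjugating enzyme, had a lowest, median and highest log2 level of 7.73, 8.87 and 11.12 in IR, of 6.75, 7.77 and 9.34 in IN and of 6.51, 7.13 and 8.31 in OUT. Of the 6 IR piglets, 5 lay above every OUT piglet. USP18, the deconjugating enzyme, had 5.89, 7.28 and 10.71 in IR, 4.67, 5.43 and 8.04 in IN and 3.78, 5.52 and 6.95 in OUT. Here 3 of 6 IR piglets lay above every OUT piglet. ISG15 itself had 4.90, 7.84 and 13.33 in IR, 4.24, 5.14 and 7.89 in IN and 4.70, 6.48 and 7.65 in OUT. Again 3 IR piglets lay above all of OUT, while IR replicate 4 was near the lowest OUT piglet.

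A probeset was called where limma gave an unadjusted p under 0.01 and at least a 2-fold difference, the criterion of the study. Between IR and OUT at day 5, UBE2L6 met it with a log2 difference of 1.95 (SE 0.55, 3.86-fold), which is how this probeset came to have a name. USP18 was called with 2.52 (SE 0.80, limma p = 0.00571, 5.75-fold, exact permutation p = 0.0152). ISG15 differed by as much, 2.49, but with an SE of 1.29 and a limma p of 0.0699 it was not called (exact permutation p = 0.171). Thus 2 of 3 members were called where the background was 0.337% of all probesets, and nothing is read from this count because UBE2L6 entered it through the study's own calls. After Benjamini-Hochberg adjustment over all probesets in limma none passed 0.05, with 0.741 for USP18 and 0.813 for ISG15. Without IR replicates 1 and 2 together, UBE2L6 differed by 1.2, USP18 by 1.29 and ISG15 by 0.29, and none was called. The mean over 30 interferon-induced genes was 9.58 and 9.63 in this pair and 6.74 to 7.36 in the other 4 IR piglets. With single arrays left out UBE2L6 kept its call, while USP18 lost it without IR replicate 1 (2.08), IR replicate 2 (1.98), OUT replicate 3 (2.18) or OUT replicate 4 (2.46).

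Between IR and IN at day 5 the differences were 3.11 for ISG15, 1.46 for UBE2L6 and 2.30 for USP18, with exact two-sided permutation p of 0.0909, 0.0519 and 0.0433. No member was called by limma, although all 3 had an unadjusted p under 0.05, and the background was 0.366%. Without IN replicate 1, IR replicate 4 or IR replicate 6, 2 members were called, and without IR replicate 3, 1 was. With replicate numbers, single or in twos, as a block 2 members were called, and 3 in a fit of these groups alone in twos, which also called ISG15 between IR and OUT at day 28. What the numbers stand for is not given, and the litters shared by IR and IN could not be paired. IN and OUT were closer together, at -0.61 for ISG15 (95% interval -3.33 to 2.11), 0.49 for UBE2L6 (-0.66 to 1.64) and 0.22 for USP18 (-1.47 to 1.91). None of these was called, none had an unadjusted limma p under 0.05, and the background was 0.0499%. Without OUT replicate 3 they were -0.36, 0.38 and -0.12.

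At day 28 the 3 rearing groups overlapped widely in all 3 genes. ISG15 had a lowest, median and highest log2 level of 6.95, 12.18 and 12.84 in IR, of 3.36, 11.45 and 13.38 in IN and of 5.74, 11.01 and 12.42 in OUT. UBE2L6 had 9.67, 10.82 and 11.02 in IR, 6.22, 10.34 and 11.59 in IN and 7.95, 9.997 and 10.81 in OUT. USP18 had 6.02, 9.64 and 10.70 in IR, 4.38, 9.87 and 10.65 in IN and 4.06, 8.22 and 9.76 in OUT. In each gene the low tails were the same arrays, IR replicates 1 and 2, IN replicate 3 and OUT replicates 1 and 2.

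No member was called at day 28 in any of the 3 comparisons by limma, and none had an unadjusted p under 0.05. The study named ISG15, as G1P2, among the genes higher in IR than OUT at day 28, so its call was not reproduced here. The study's model also had the run as a block. IR minus OUT was 1.31 for ISG15 (95% interval -2.11 to 4.73), 0.82 for UBE2L6 (-0.71 to 2.35) and 1.27 for USP18 (-1.15 to 3.69), against a background of 0.154% called. IN minus OUT was 0.63 for ISG15, 0.26 for UBE2L6 and 1.26 for USP18, against a background of 0.191%. Without IN replicate 3 these became 2.02, 1.0 and 2.16, without OUT replicate 1 they were 0.02, -0.10 and 0.55, without OUT replicate 2 they were -0.16, 0.07 and 1.04, and none was called. IR minus IN was 0.68, 0.57 and 0.01 for ISG15, UBE2L6 and USP18, against a background of 0.495%. Without IN replicate 3 all of these turned, to -0.70, -0.18 and -0.89. Without OUT replicate 1, IR minus OUT was 0.70 for ISG15, 0.47 for UBE2L6 and 0.56 for USP18, and without OUT replicate 2 it was 0.52, 0.63 and 1.05.

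At day 56, after weaning, IN had the highest group means. ISG15 had a lowest, median and highest log2 level of 6.67, 8.79 and 12.99 in IR, of 9.89, 11.80 and 13.36 in IN and of 8.15, 10.21 and 12.28 in OUT. UBE2L6 had 8.92, 9.77 and 11.51 in IR, 9.45, 10.72 and 11.81 in IN and 9.21, 10.08 and 11.14 in OUT. USP18 had 5.69, 7.13 and 11.71 in IR, 8.56, 10.16 and 11.71 in IN and 6.96, 8.88 and 10.32 in OUT. IR split, with replicates 5 and 6 among the highest of all piglets in each gene and the other 4 low.

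IN minus OUT at day 56 was 1.80 for ISG15 (SE 1.08, exact permutation p = 0.0606), 0.53 for UBE2L6 (SE 0.49, exact permutation p = 0.299) and 1.43 for USP18 (SE 0.98, exact permutation p = 0.0779). IR minus IN was -2.11, -0.54 and -1.83 in the same order, with exact permutation p of 0.126, 0.344 and 0.152. For ISG15 and USP18, 4 of 6 IR piglets lay below every IN piglet. IR minus OUT was -0.31 for ISG15 (95% interval -2.58 to 1.96), -0.02 for UBE2L6 (-1.05 to 1.01) and -0.39 for USP18 (-2.45 to 1.66). No member was called in these comparisons by limma and none had an unadjusted p under 0.05. The background was 0.283% for IR against OUT, 0.275% for IN against OUT and 0.287% for IR against IN.

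With age the 3 genes rose in the sow-reared piglets, most from day 5 to day 56. In IN piglets all 3 were called between these days, ISG15 with a log2 difference of 6.11 (SE 1.41, limma adjusted p = 0.000786), UBE2L6 with 2.86 (SE 0.62, adjusted p = 0.000395) and USP18 with 4.37 (SE 1.03, adjusted p = 0.00102). Every IN piglet at day 56 lay above every IN piglet at day 5 in all 3 genes. In OUT piglets the differences were 3.70 for ISG15 (limma adjusted p = 0.045), 2.82 for UBE2L6 (adjusted p = 0.000482) and 3.15 for USP18 (adjusted p = 0.018), and 2 of 3 were called. There, too, the days did not overlap in any of the 3 genes. Exact permutation p was 0.00216 in each of these 6 cases, the smallest that 6 against 6 piglets can give. The test takes piglets as independent, which shared runs or litters would break. Age moved much of the tissue, and the background called was 12.3% in IN and 11.4% in OUT, while days did not overlap for 18% and 9.72% of all probesets. In OUT, 1 of 3 was called without replicate 3 at day 5 (3.95, 2.71 and 2.81 for ISG15, UBE2L6 and USP18) or without replicate 3 at day 56, and all 3 were called without replicate 1 or 2 at day 56.

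Most of this rise lay before day 28. From day 5 to day 28 in IN, ISG15 rose by 4.63 (limma adjusted p = 0.0151), UBE2L6 by 2.17 (adjusted p = 0.00976) and USP18 by 3.17 (adjusted p = 0.0229), all called against a background of 8.08%. Without IN replicate 3 at day 28 these were 6.02, 2.92 and 4.07, and without IN replicate 1, 2 or 6 at day 28, 2 of 3 were called. In OUT, UBE2L6 rose by 2.41 (adjusted p = 0.00515) and was the 1 member called, against a background of 6.92%, while ISG15 differed by 3.39 and USP18 by 2.13, with exact permutation p of 0.0346 and 0.0519. Without OUT replicate 1 at day 28 all 3 were called, with 4.0 for ISG15, 2.76 for UBE2L6 and 2.84 for USP18. Without OUT replicate 2 at day 28, 2 were called. Without OUT replicate 3 at day 5 the differences were 3.64, 2.29 and 1.78, with 1 called. From day 28 to day 56 no member was called in limma in any rearing group and none had an unadjusted p under 0.05, against backgrounds of 3.06% in OUT, 2.57% in IN and 2.41% in IR.

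In isolator piglets no member was called between any days. From day 5 to day 28 the log2 differences were 2.21 for ISG15 (95% interval of limma -0.63 to 5.04), 1.28 for UBE2L6 (0.03 to 2.53) and 0.88 for USP18 (-1.20 to 2.95), and UBE2L6 alone had an unadjusted p under 0.05. The background was 6.26%. From day 5 to day 56 they were 0.89, 0.86 and 0.24, with no unadjusted limma p under 0.05 and a background of 8.4%. Without IR replicates 1 and 2 at day 5, the differences from day 5 to day 28 became 4.41 for ISG15, 2.03 for UBE2L6 and 2.11 for USP18, and ISG15 and UBE2L6 were called. Those from day 5 to day 56 became 3.10, 1.61 and 1.47, with none called and an unadjusted p under 0.05 for ISG15 and UBE2L6 in limma.

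**Figure D2:**
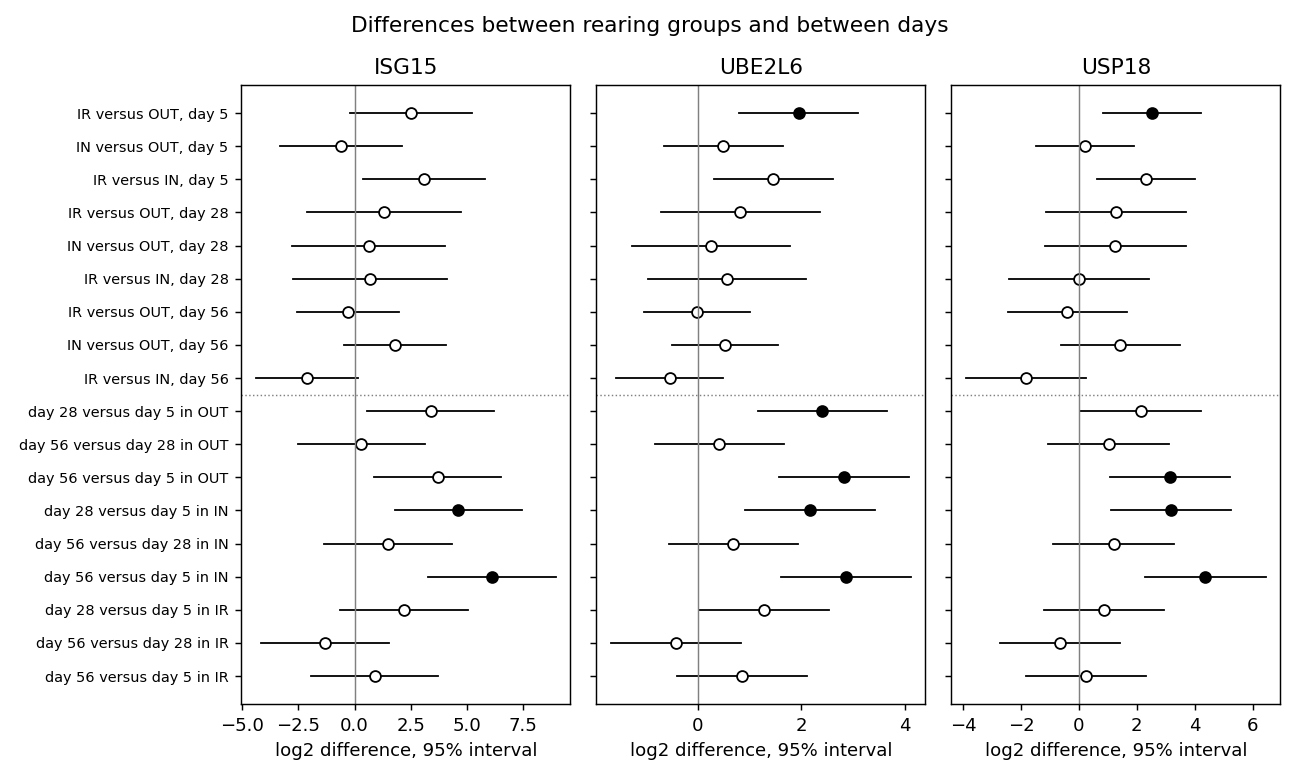
Log2 differences of ISG15, UBE2L6 and USP18 (x axis, scaled separately in each panel) in 9 comparisons of rearing groups within a day and 9 of days within a rearing group (y axis). Circles are estimates, lines 95% intervals of limma, and filled circles meet the criterion of an unadjusted p under 0.01 and at least a 2-fold difference. Filled circles lie at day 5 for IR versus OUT and in the age comparisons of IN and OUT.

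Whether the effect of rearing changed with age was tested directly in 1 fit of all 9 groups. IR minus OUT was lower at day 56 than at day 5 by an estimate of -1.96 for UBE2L6 (SE 0.88), of -2.92 for USP18 (SE 1.46) and of -2.80 for ISG15 (SE 1.995), with a limma adjusted p of 0.985 for each. No member was called in any of 6 such tests against OUT, this UBE2L6 value being the one with an unadjusted limma p under 0.05. The backgrounds for IR minus OUT were 0.204% for day 28 against day 5, 0.325% for day 56 against day 28 and 0.254% for day 56 against day 5. Those for IN minus OUT were 0.437%, 1.25% and 0.291% in the same order. In 3 further tests of IR minus IN, added after seeing the data, USP18 was lower at day 56 than at day 5 by an estimate of -4.13 (SE 1.46, limma adjusted p = 0.554) and was the 1 member called, against a background of 0.774%. ISG15 (-5.22, SE 1.995, limma adjusted p = 0.585) and UBE2L6 (-2.0, SE 0.88, adjusted p = 0.594) were not called but had an unadjusted p under 0.05. Without IR replicates 1 and 2 at day 5 together, the 3 estimates were -2.90 for USP18, -3.01 for ISG15 and -1.25 for UBE2L6, and none was called. The USP18 call was also lost when any 1 of 12 of the 24 arrays was left out, with estimates from -4.05 to -3.59. Those arrays were IR replicates 1 and 2 and IN replicates 3, 5 and 6 at day 5, and IR replicates 1, 2, 3 and the unnumbered one and IN replicates 1, 2 and 4 at day 56. For IR minus IN at day 28 against day 5 and at day 56 against day 28, no member was called or had an unadjusted limma p under 0.05, against backgrounds of 0.325% and 1.17%.

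Ordered by their means, each gene had OUT or IN at day 5 lowest and IN at day 56 highest. Between neighbours in that order the exact permutation p was never below 0.0519, the value for UBE2L6 in IN and IR at day 5. The 3 genes did not differ detectably in how far they moved between rearing groups. Of 27 tests of the difference of 2 members within an array, the lowest exact permutation p was 0.0173, for USP18 rising more than UBE2L6 between OUT and IN at day 56 (0.90 on the log2 scale), and the adjusted p was 0.351.

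From piglet to piglet the 3 genes went up and down together. Over the deviations of 54 piglets from the means of their groups, Pearson's r was 0.869 for ISG15 with UBE2L6, 0.879 for ISG15 with USP18 and 0.858 for UBE2L6 with USP18. Spearman's rho was 0.867, 0.888 and 0.852, and the p from 100000 permutations within groups was 1e-05 for each r and rho, the smallest they can give. Within single days r lay between 0.77 and 0.93 over 18 piglets, lowest at day 5 in each pair, and permutation p were at most 0.00278 for r and 0.00797 for rho, at most 0.00303 and 0.00797 after adjustment over 24 such tests. Without the 2 piglets farthest from the median of the gene named first, r over all piglets was 0.848, 0.855 and 0.821. Piglets that share a litter or run would make these p too small.

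**Figure D3:**
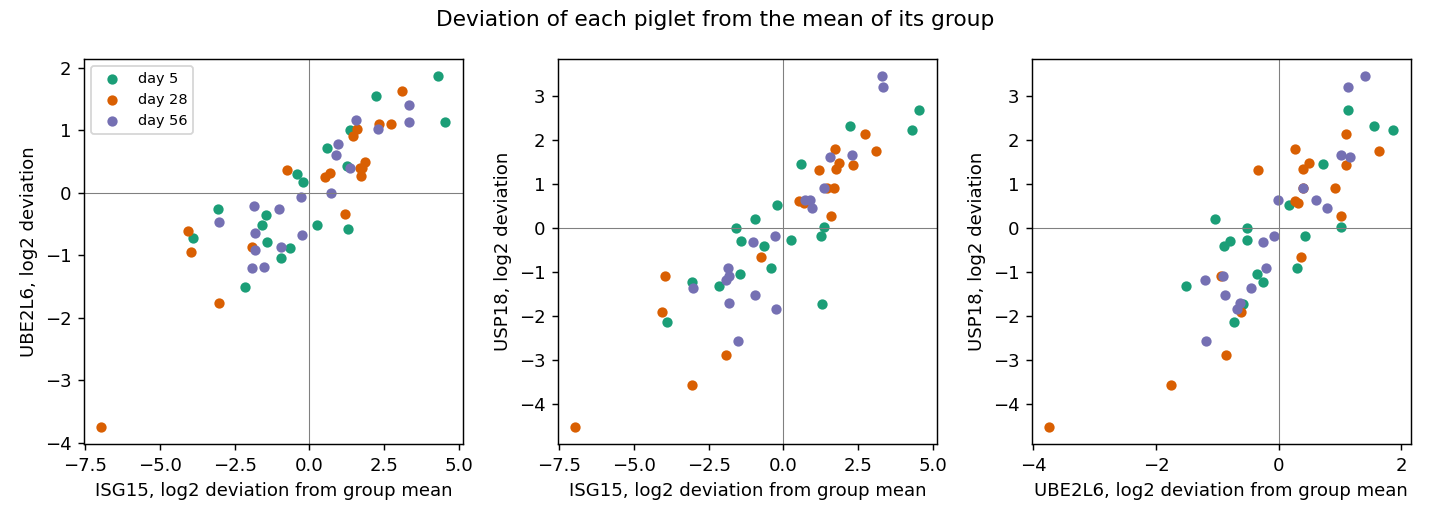
Deviation of each of 54 piglets from the mean of its group for each pair of ISG15, UBE2L6 and USP18 (both axes, log2 units), coloured by day. Points lie along a rising line at all 3 days, with Pearson's r from 0.858 to 0.879, and the point at the lower left of each panel is IN replicate 3 at day 28.

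Piglets with neighbouring replicate numbers were close in level. Taking numbers 1 and 2, 3 and 4, and 5 and 6 of a group as twos, the median gap in ISG15 was 0.965 log2 units over 25 such pairs against 2.70 over the 100 other pairs of numbered piglets in a group. It was 0.384 against 1.26 for UBE2L6 and 0.739 against 2.0 for USP18. This is a description without a test.

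The probesets that followed the members most closely were other interferon-induced genes. The 10 named probesets with the highest mean r to the 3 members over the same 54 deviations belonged to MX1 (0.906), RSAD2 (0.894 and 0.887 for 2 of its 4 probesets), HERC6 (0.890), RAB3C (0.887), DDX60 (0.881), XAF1 (0.878), PARP12 (0.872), ISG12(A) (0.872) and IFIT3 (0.872). MX1 and RSAD2 block virus replication, IFIT3 belongs to the proteins that sense or bind viral RNA, and PARP12 is an interferon-induced ADP-ribosyltransferase. RAB3C, a small GTPase of secretory vesicles, is the name the annotation gives to that probeset. These 10 also held ranks 1 to 10 among all probesets, with or without a name.

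Of 13 other genes of ISG15 conjugation and its reversal, 7 were measured under their names, and UBA7, HERC5 and TRIM25 were not among them. HERC6, a ligase of the HERC family, behaved most like the members. Its lowest, median and highest log2 level at day 5 were 3.74, 4.85 and 8.21 in IR, 3.39, 4.05 and 6.06 in IN and 3.34, 3.93 and 4.44 in OUT. It was not called between IR and OUT at day 5 (1.67, SE 0.68, limma adjusted p = 0.796). It rose from day 5 to day 56 by 3.91 in IN (limma adjusted p = 0.00053) and 2.90 in OUT (adjusted p = 0.00985), and from day 5 to day 28 by 2.78 in IN and 2.82 in OUT. In IR its differences were 2.12 to day 28 and 0.99 to day 56, neither called.

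The rest of the machinery, apart from USP2, kept a narrower range. The conjugating enzymes UBE2E2 and UBE2E3, which can work with ISG15 or ubiquitin ligases, the ligase ARIH1 and the proteases USP5 and USP21 were called in none of the 18 comparisons. Group means of ARIH1 lay between 9.25 and 9.69 and those of UBE2E3 between 10.32 and 10.89. Some differences with age had a limma adjusted p under 0.05 but were below 2-fold. In OUT these were ARIH1 from day 28 to day 56 (0.44) and day 5 to day 56 (0.33), and USP21 from day 5 to day 28 (0.73) and to day 56 (0.72). In IN it was UBE2E3 from day 5 to day 56 (-0.56). USP2, a protease with activity on ubiquitin and ISG15, rose from day 5 to day 56 by 1.40 in IN (limma adjusted p = 0.0109) and by 1.39 in IR (adjusted p = 0.0164), and from day 28 to day 56 in IR by 2.08 (adjusted p = 0.00166). In the 9 comparisons between rearing groups, 0 of the 7 genes was called by limma. An unadjusted p under 0.05 was given by HERC6 for IR against OUT at day 5 and IR against IN at day 56 (-1.73), by USP21 in 3 comparisons (0.57 for IN minus OUT and -0.57 for IR minus IN at day 5, -0.48 for IN minus OUT at day 56), by UBE2E2 for IR minus OUT at day 56 (-0.53) and by ARIH1 for IN minus OUT at day 56 (-0.36).

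**Figure D4:**
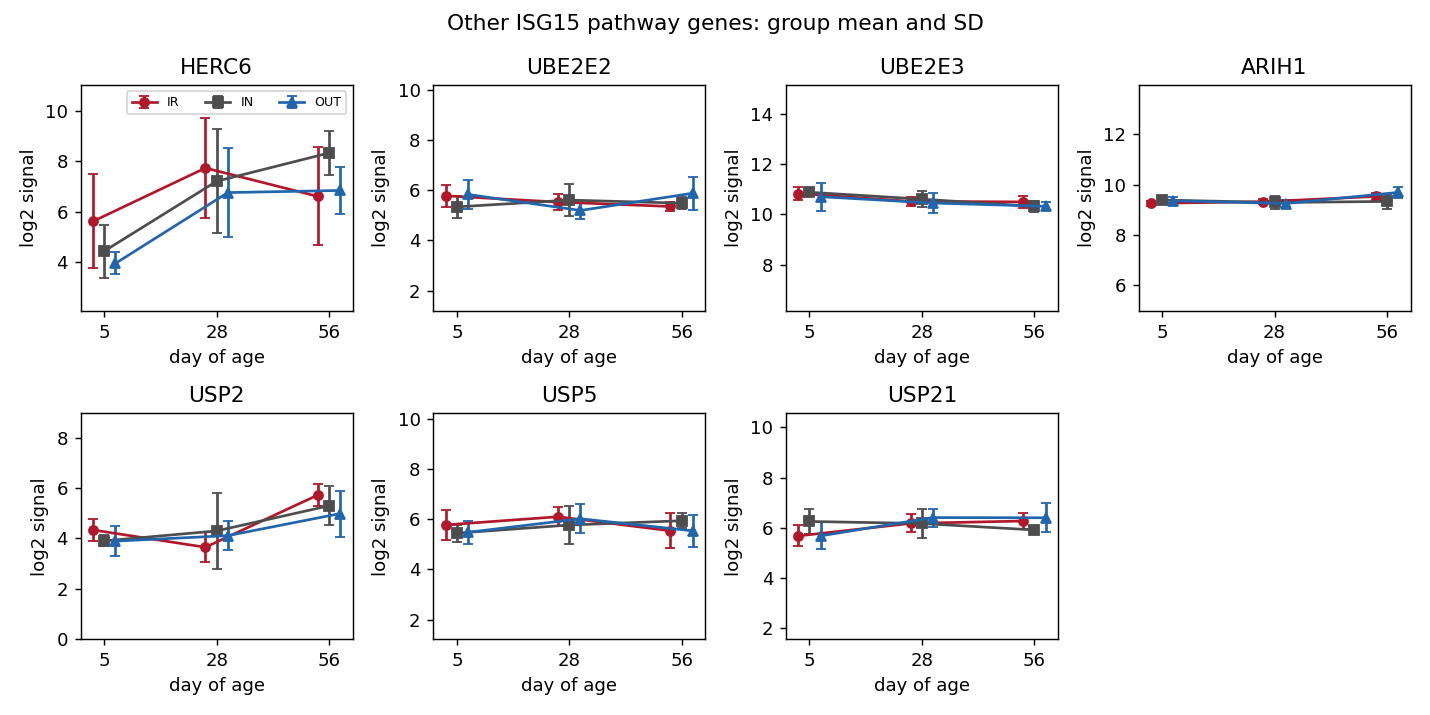
Group mean and SD (n = 6) of log2 signal (y axis, 9 log2 units in each panel) at days 5, 28 and 56 (x axis) for the 7 other measured genes of ISG15 conjugation and deconjugation. HERC6 rises with age in IN and OUT, USP2 is highest at day 56, and the other 5 genes stay within a narrow range.

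Other ubiquitin-like modifiers and conjugating enzymes lay close to the rest of the array between IR and OUT at day 5. Of 15 measured modifiers and 13 measured conjugating enzymes, including UBE2L3, the closest relative of UBE2L6, 0 were called by limma between IR and OUT at day 5 (1 and 0 with an unadjusted p under 0.05), where the medians were 0.03 and 0.03 against 0.01 for all probesets tested. In other comparisons the conjugating enzymes leaned one way without a call, with 2 of 13 above 0 for IN minus OUT at day 5 (median -0.13) and for IR minus OUT at day 56 (median -0.11). UBD, also known as FAT10, is a modifier that inflammatory cytokines induce. UBD rose from day 5 to day 56 by 6.95 in OUT (limma adjusted p = 1.36e-07), by 5.79 in IN (adjusted p = 4.21e-06) and by 5.67 in IR (adjusted p = 9.83e-06). GABARAPL1, an autophagy modifier, fell by 1.79 in OUT (limma adjusted p = 0.00014), 2.02 in IN and 1.06 in IR over the same days.

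Of the signalling genes above the members, few were called between rearing groups. IRF7, the factor that drives interferon genes once it is induced, was called for IR against OUT at day 5 (2.32, SE 0.70, limma adjusted p = 0.701), the 1 called there of 5 measured interferon regulatory factors, and the call was lost without OUT replicate 3 or without IR replicates 1 and 2. IRF1, another of them, was called higher in IR than IN at day 28 (1.34, SE 0.41, limma adjusted p = 0.497). Whether this call rested on IN replicate 3 at day 28 was not tested. IRF9, a DNA-binding factor of the type I interferon response, differed by 1.06 (limma adjusted p = 0.763), and the receptor chain IFNAR1 by -0.68 (adjusted p = 0.757), so 0 of 15 receptor and signalling genes were called, 3 having an unadjusted p under 0.05. STAT2 rose with age by 1.86 in OUT, 1.65 in IN and 1.26 in IR from day 5 to day 56, all called, and IRF9 by 1.40 in OUT and 1.83 in IN. Of the interferon genes, IFNA1 and IFNB1 averaged 3.04 and 2.01 over all arrays, below the array medians, and were called in no comparison. IFNG averaged 3.23, also below the array medians. It rose by 1.68 in OUT and 2.0 in IN from day 5 to day 56 and by 2.72 in IR from day 5 to day 28. In IR its difference from day 28 to day 56 was -1.89 (limma adjusted p = 0.048).

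Among 30 measured type I interferon-induced genes outside the machinery, 3 were called higher in IR than OUT at day 5. These were RNF213, PARP12 and IFI27, against a background of 0.337%, and 29 of the 30 had a positive difference. RNF213 had its name from the study's list alone. The median was 1.35 against 0.01 over all probesets tested. Without OUT replicate 3 it was 1.01 and RNF213 alone was called, and without IR replicates 1 and 2 it was 0.37 and 0 were called by limma, 1 having an unadjusted p under 0.05. From day 5 to day 56, 18 were called higher in IN (median 2.13), where the background was 12.3%. In OUT 12 were called higher (median 1.34), where it was 11.4%, and in IR 1, GBP2 (median over the 30 genes 0.20), where it was 8.4%. The mean level of the 30 genes had an r of 0.909 with ISG15, 0.874 with UBE2L6 and 0.927 with USP18 over the deviations of 54 piglets.

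Immune cell markers rose with age as well. Of 8 measured T cell markers, 7 were called higher at day 56 than day 5 in each of IN, OUT and IR, with medians of 4.66, 4.88 and 3.94, and of 9 macrophage markers 7, 3 and 3, against the same backgrounds of 12.3%, 11.4% and 8.4%. The mean of the T cell list ran from 2.86 to 3.54 in IR, 3.21 to 3.50 in IN and 3.07 to 3.54 in OUT at day 5, and from 5.46 to 7.38, 6.21 to 7.53 and 6.27 to 8.12 at day 56. The part of these cells in the age difference of the members was not tested. At day 5, where UBE2L6 and USP18 were called, 0 of 8 T cell, 9 macrophage, 3 cytotoxic and 4 plasmacytoid dendritic cell markers were called by limma between IR and OUT, and the medians were -0.09, -0.37, 0.05 and 0.06. MRC1, a macrophage receptor, was the one of these with an unadjusted p under 0.05 (-0.72). Of 7 vessel markers, LYVE1, a receptor of lymphatic endothelium, was called lower in IR (-1.01, limma adjusted p = 0.495), 5 had an unadjusted p under 0.05, and the median was -0.55. OUT replicate 3 stood apart in these lists, with a macrophage mean of 7.74 against 5.57 to 6.42 in the other OUT piglets and a vessel mean of 8.09 against 6.19 to 6.96, while IR ran from 5.60 to 6.43 in the vessel mean. Without it the vessel median was -0.50 with none called and 2 at an unadjusted p under 0.05 in limma, and the macrophage median was -0.12 with none called and 0 at an unadjusted p under 0.05. The part of vessel, macrophage and plasmacytoid cells in the day 5 differences was not tested. The plasmacytoid markers TCF4 and TLR9 averaged 2.41 and 3.06 over all arrays, and SPIB and IRF8 averaged 6.92 and 7.49. From day 5 to day 56 IRF8 was called higher in OUT (2.19) and IN (3.36), and SPIB in OUT (1.79). The mean of the macrophage list was 6.20 and 6.03 in IR replicates 1 and 2 at day 5 and 5.47 to 5.67 in the other 4. That of the plasmacytoid list was 5.08 and 4.90 in the same pair and 4.31 to 4.46 in the other 4. Over the deviations of 54 piglets, r with ISG15 was 0.523 for the macrophage list, 0.433 for the T cell list and 0.305 for the ileal epithelium list, below the 0.909 of the interferon-induced list. For the 13 conjugating enzymes r was 0.731 with ISG15, 0.599 with UBE2L6 and 0.594 with USP18.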

How the data were processed

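Per the labels and the study's methods, the authors scanned the arrays with GCOS 1.2 and normalized them by gcRMA, and the deposited values are log2 signals, 1 column per piglet. A log2 signal from gcRMA compresses low levels, and different probesets cannot be compared in level. Of 24123 probesets, 91 control probesets were left out. The probeset annotation gave 1 symbol to 10099 probesets, several to 198, and the study's list of transcripts that differed between rearing groups named another 126. Arrays hold no read depth, so the 6 piglets per group limit the precision. Each day was fitted with its 3 groups in limma 3.58.1 (R 4.3.3), and days and their interactions (those of IR with IN added after seeing the data) in 1 fit of 9 groups, with p adjusted by Benjamini-Hochberg over 24032 probesets. Exact two-sided permutation tests ran in Python 3.11.15. The study's own model also had its run as a block, which the labels do not give, so no block was used. Alternatives were blocks by replicate number, other normalization and weights, fewer or all groups in a fit, dim probesets left out, an F-test and single arrays left out. Scripts were tested on simulated data. For lists, the brightest probeset stood for a gene, every machinery gene was named, and of other lists those called or with the 3 smallest p. The members and lists were chosen with earlier results of these data known. No sequences of the probesets or genes were used here.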

Additional observations from a re-analysis of the deposited data

Results flagged for a closer look

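In 27 sets of 6 piglets (3 genes in 9 groups), the gap of the extreme piglet to its nearest neighbour was set against the range of the group, and a ratio above Dixon's 95% critical value for 6 samples was taken as far from the others. Chance alone gives about 1 in 20. UBE2L6 in the array labelled IN replicate 3 at day 28 was lowest at 6.22, with the next piglet at 10.22, a ratio of 0.745. USP18 was highest in IN replicate 1 at day 5 at 8.04, with the next piglet at 5.92, a ratio of 0.631. ISG15 had no such piglet. The difference between IR and IN was tested between days for each gene, and for USP18 it was lower at day 56 than at day 5 by an estimate of -4.13 on the log2 scale (SE 1.46, limma adjusted p = 0.554), which met the criterion of an unadjusted p under 0.01 and at least 2-fold. ISG15 and UBE2L6 did not meet it.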

How the results depend on the processing

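USP18 lost its call between IR and OUT at day 5 in a fit of the 2 groups alone (2.52) and with array weights (1.71). It also lost it in 1 fit of all 9 groups (2.52). Members called in this comparison (2) were then 1, UBE2L6. They were 0 at an adjusted p under 0.05 (UBE2L6 1.95, USP18 2.52) and 0 without IR replicates 1 and 2 at day 5 (UBE2L6 1.2, USP18 1.29), which also raised those called in IR from day 5 to day 28 from 0 to 2. It lowered those called for IR minus IN, day 56 against day 5, from 1 to 0 (USP18 -2.90), as did the block by number (USP18 -3.79), and turned ISG15 to 1.02 for IR minus OUT, day 28 against day 5. These settings, and leaving out single arrays between days, were chosen after seeing the data. Members called between IR and IN at day 5 (0) were 1 without dim probesets (USP18 2.30) and 2 by a moderated F-test (UBE2L6 1.46, USP18 2.30). USP18 turned to -0.0098 after a further quantile normalization (IR minus IN, day 28) and ISG15 to -0.16 with array weights (IN minus OUT, day 28), and UBE2L6 to -0.018 with the block by number and -0.039 after quantile normalization (IN minus OUT, day 56 against day 5). The causes were not tested.

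Same-numbered piglets of different groups had correlations of deviations from -0.482 to 0.68. Their means were 0.0205, 0.0464 and 0.0118 at days 5, 28 and 56. Within a group, piglets in the same twos had mean correlations of 0.0395, 0.142 and -0.000276 on these days. Other piglets of a group had -0.205, -0.274 and -0.242. Between groups the means were 0.0322, -0.00314 and -0.0464 for the same twos and -0.0115, 0.00339 and 0.0185 for different twos. Whether the numbers stand for the run or the litter was not tested. A block by number, or by number in twos, gave 2 members called between IR and IN at day 5 (UBE2L6 1.46, USP18 2.30), and the block in twos with those 2 groups alone gave 3 (ISG15 3.11) there and 1 between IR and OUT at day 28 (ISG15 1.31). IR minus OUT at day 56 turned to 0.27, 0.14 and 0.022 for ISG15, UBE2L6 and USP18 with the block by number, to 0.17 and 0.068 for ISG15 and UBE2L6 with the block in twos, and to 0.13 and 0.013 with the 2 groups alone.

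With each array left out in turn, members called ranged from 1 to 2 (IR against OUT, day 5), 0 to 2 (IR against IN, day 5), 1 to 3 (OUT, day 28 against day 5, and day 56 against day 5) 2 to 3 (IN, day 28 against day 5) and 0 to 2 (IR minus IN, day 56 against day 5). ISG15 ranged from 2.20 to 3.88 (IR minus IN, day 5), -0.16 to 2.02 (IN minus OUT, day 28), -0.70 to 1.49 (IR minus IN, day 28), -0.97 to 0.29 (IR minus OUT, day 56) and -0.48 to 0.86 (OUT, day 56 minus day 28). UBE2L6 ranged from 1.08 to 1.77, -0.10 to 1.0, -0.18 to 0.89 and -0.30 to 0.22 in the former 4, and from -0.060 to 1.01 in IN (day 56 minus day 28). USP18 ranged from 1.98 to 2.95 (IR minus OUT, day 5), 1.76 to 2.77 (IR minus IN, day 5), -0.25 to 0.51 (IN minus OUT, day 5), -0.89 to 0.59 (IR minus IN, day 28), -1.09 to 0.12 (IR minus OUT, day 56) and -0.46 to 0.77 (IR, day 56 minus day 5). IN minus OUT ranged from -0.21 to 1.97 for ISG15, -0.48 to 0.62 for UBE2L6 and -0.73 to 0.89 for USP18 (day 56 against day 28), and for UBE2L6 from -0.59 to 0.51 (day 28 against day 5) and -0.20 to 0.35 (day 56 against day 5). Of 680 values under the alternatives that left no single array out, 632 were taken as kept. These alternatives include the fits without IR replicates 1 and 2 together. A log2 difference was kept if its direction and side of the criterion were. The 680 also hold counts of members called, where an equal or similar count, such as 2 for 3, was taken as kept.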
